A study of Mus musculus with 18 samples.

Results

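The miRNAs described here come from the long run of hairpins between miR-379 and miR-377 in the imprinted Dlk1-Dio3 domain of mouse chromosome 12, the stretch whose host transcript is called Mirg. They were chosen by name alone, as every row, of either arm, that belongs to a list of 32 hairpins of this stretch. Of the 1390 mature miRNA rows in the table, 57 qualified. They cover 30 hairpins, 27 of them with both arms. The names miR-544 and miR-453 matched no row.

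A miRNA is cut from a hairpin in a longer transcript, and either strand of the hairpin stem (the 5p or the 3p arm) can be loaded onto an Argonaute protein. Its seed, the bases near the 5′ end, pairs with target mRNAs and lowers their output. The miR-379 to miR-377 hairpins lie in a row on the strand of Meg3 and Rian and are transcribed from the maternal chromosome, while the protein-coding genes of the domain are expressed from the paternal one. The domain is known in mouse pluripotent cell cultures as one whose maternal transcripts can differ between lines.

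Small RNAs were sequenced from 18 libraries in 9 groups of 2: freshly isolated inner cell mass (ICM, from which the embryo proper arises; day 0), outgrowths grown from it for 0.5, 1, 2, 3 or 5 days, and embryonic stem cells (ESCs) from 3 passages. All groups came from NMRI mice, the blastocysts were taken at E3.5 after superovulation, and ICMs were freed of trophectoderm by immunosurgery. Outgrowths and ESCs shared a serum-free medium with leukemia inhibitory factor and R2i, a pair of inhibitors (PD0325901 against MEK and SB431542 against TGF-β receptors), on gelatin. The labels give no genetic change in any group, and they do not say whether the 2 libraries of a group came from separate embryos or cultures, so p-values measure only the spread between those libraries.

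The ESC groups are called P2, P4 and P15 after the code in their descriptions. Their titles give other passages: the P2-coded libraries are titled passage 4, the P4-coded ones passage 15 and the P15-coded ones passage 2. No order of passages was therefore read from any result. The deposited values are normalized counts rounded to whole numbers. Depth moved with stage: the 10 libraries from ICM to day 3 had an estimated 111000 to 370000 reads, whereas the 8 libraries of day 5 and ESCs had bounds of at least 2320000 to 3020000. Other comparisons were fitted within the 10 shallow or within the 8 deeper libraries, and the 2 comparisons that cross this step raised every lower value to a common floor of 27 normalized counts. The miR-290 to miR-295 miRNAs, taken here as the marker list for ICM and ESCs, held 6.45% to 17.8% of the normalized counts in every library. No list of trophectoderm markers was used. Markers of other cell types held smaller shares: fibroblast and mesenchymal ones held at most 0.329%, blood ones at most 0.469%, neural ones at most 0.0877%, striated muscle ones at most 0.0188% and endoderm ones at most 0.317%. The largest of these are of the size of the members' own mean share in ICM (0.326%) and P15 (0.33%). Single marker rows reached group means of 3082 (miR-192-5p in P15), 2288 (miR-486-5p in ICM) and 2006 (miR-143-3p in P4).

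RefSeq mature sequences (GRCm38.p6) were found for 53 of the 57 rows. The sequences below are those on which the results turn: the most abundant members, the pairs that resemble each other, and the members that separated the ESC groups. Each is written 5′ to 3′ with its seed (bases 2 to 8) in capitals.
miR-411-5p: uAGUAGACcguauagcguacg
miR-379-5p: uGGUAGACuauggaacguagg
miR-1193-5p: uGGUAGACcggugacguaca
miR-411-3p: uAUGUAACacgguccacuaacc
miR-379-3p: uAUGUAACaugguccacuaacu
miR-758-3p: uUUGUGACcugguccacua
miR-323-3p: cACAUUACacggucgaccucu
miR-300-3p: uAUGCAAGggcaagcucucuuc
miR-381-3p: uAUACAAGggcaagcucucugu
miR-134-5p: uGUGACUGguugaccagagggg
miR-679-5p: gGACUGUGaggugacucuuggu
miR-666-5p: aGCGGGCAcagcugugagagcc
miR-668-3p: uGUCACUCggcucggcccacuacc
miR-667-3p: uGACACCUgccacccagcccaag
miR-382-5p: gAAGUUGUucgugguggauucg
miR-494-3p: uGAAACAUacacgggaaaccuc

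The cluster holds several near copies, but few shared seeds. Among the 53 sequences only 2 seeds occurred more than once, and each joined 2 members: miR-379-5p with miR-1193-5p, and miR-379-3p with miR-411-3p. Positions are counted from 1 at the 5′ end, and each substitution gives the first-named miRNA's base first. The miR-300-3p and miR-381-3p sequences were identical at 19 of 22 positions and differed by G4A, U21G and C22U, the first of them inside the seed. The pair miR-379-3p and miR-411-3p differed by U10C and U22C, both outside it. The 5p arms of the same hairpins, miR-379-5p and miR-411-5p, differed at 7 positions, among them G2A in the seed. How reads were divided between such near copies is not stated, so the levels of each pair are less certain than their sum.

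Of the 30 hairpins, 29 were placed in RefSeq, all on the plus strand, at chr12:109709060-109740577, a span of 31518 bases. The annotated Mirg gene (GENCODE vM21) begins inside that span, at chr12:109729764-109749460. It contains 7 of the hairpins (miR-382, miR-134, miR-668, miR-485, miR-154, miR-496a and miR-377), of which 3 lie in exons, 2 partly in exons and 2 in introns. The other 22 lie upstream of its annotated start.

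The members made up a small share of the miRNA pool in ICM and a larger one in outgrowths and in most ESCs. Their summed share of all normalized counts was 0.326% ± 0.0973 (SD, n = 2) in ICM, 0.456% ± 0.00983 at day 0.5, 0.898% ± 0.0385 at day 1 and 1.46% ± 0.0523 at day 2. It was 1.91% ± 0.464 at day 3 and 2.44% ± 0.344 at day 5. In the ESC groups it was 4.91% ± 0.265 for P2, 4.85% ± 0.881 for P4 and 0.33% ± 0.0125 for P15. The order was thus ICM, day 0.5, day 1, day 2, day 3, day 5, with no overlap of libraries between neighbours except between days 3 and 5, and with P2 and P4 above all other groups and overlapping each other. The 2 P15 libraries, at 0.321% and 0.339%, lay within the range of the ICM libraries, at 0.257% and 0.395%. These sums are descriptions and carry no test.

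**Figure D1:**
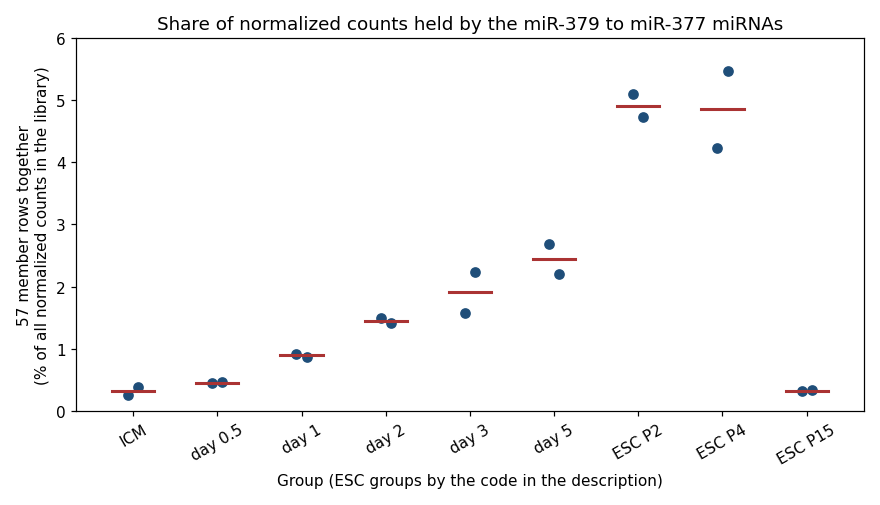
Share of all normalized counts in each library held by the 57 member rows (vertical axis, percent) by group (horizontal axis). Points are libraries and red bars are group means; P2 and P4 lie between 4.23% and 5.47%, and P15 lies at the level of ICM.

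A handful of members supplied most of this signal. Averaged over the 18 libraries, only 5 members reached 1000 and 21 reached 100. The most abundant, miR-411-5p, held 10.2% to 37% of the member sum and was the top member in 17 of the 18 libraries, the exception being ICM replicate 1, where miR-485-3p led with 174. At the other end, 7 members stayed below 10 in every library, and 14 were listed above 0 only in day 5 and ESC libraries, which are also the deep ones. In both ICM libraries 31 of the 57 members were listed at 0, which the lowest listed value there (27 and 16) leaves uninformative about low levels. The 15 members above 0 in all 18 libraries are therefore the firmest ground for the early stages.

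Values of the 10 most abundant members are given library by library, as normalized counts with replicate 1 first. The values of miR-411-5p were 158 in ICM replicate 1 with a group mean of 266.5 ± 153 (SD, n = 2), 525 and 732 at day 0.5, 1196 and 1210 at day 1, 2064 and 2258 at day 2, 5066 and 3694 at day 3, 4642 and 4731 at day 5, 13819 and 13744 in P2, 15637 and 14319 in P4, and 1382 and 1589 in P15. It was lowest in ICM and highest in P4, the day 3 and day 5 libraries overlapped, and P15 lay between days 1 and 2.

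The second most abundant member, miR-134-5p, is known for limiting dendritic spine size in neurons through Limk1 and for acting on pluripotency factors in differentiating mouse ESCs. It measured 109 and 239 in ICM, 315.5 ± 34.6 (SD, n = 2) at day 0.5, 739 and 539 at day 1, 1199 and 1380 at day 2, 1645 and 1618 at day 3, and 2548 and 2610 at day 5. Its ESC values were 3117 and 3251 in P2, 8288 and 7345 in P4, and 598 and 675 in P15. The P4 libraries stood above all others, and P15 lay in the range of day 1.

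For miR-758-3p the values were 158 and 87 in ICM, 152 and 85 at day 0.5, 653 and 417 at day 1, 1500 and 1474 at day 2, 1785 and 1722 at day 3, 2325 and 2096 at day 5, 3879 and 3953 in P2, 3395 and 3743 in P4, and 286 ± 8.49 (SD, n = 2) in P15. ICM and day 0.5 overlapped for this member, and day 1 already stood apart from both.

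The near-identical pair ran side by side. For miR-300-3p the values were 141 and 78 in ICM, 213 and 350 at day 0.5, 582 and 487 at day 1, 1176 and 669 at day 2, 1294 and 1266 at day 3, 1672 and 1173 at day 5, 5001 and 4502 in P2, 3858 and 4524 in P4, and 260 and 332 in P15. For miR-381-3p they were 141 and 164 in ICM, 277 and 279 at day 0.5, 391 and 330 at day 1, 753 and 889 at day 2, 640 and 1318 at day 3, 1288 and 755 at day 5, 4262 and 3389 in P2, 2575 and 3311 in P4, and 225 and 260 in P15. For miR-381-3p the day 3 and day 5 groups overlapped.

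Replicates of miR-679-5p lay close together, with 33 and 34 in ICM, 55 and 64 at day 0.5, 270 and 217 at day 1, 383 and 519 at day 2, 520 and 583 at day 3, 886 and 804 at day 5, 982 and 1001 in P2, 2620 and 2759 in P4, and 113 and 112 in P15. Each group up to day 3 lay above the one before it without overlap. For miR-323-3p the values were 38 and 65 in ICM, 159 and 163 at day 0.5, 254 and 240 at day 1, 462 and 474 at day 2, 366 and 580 at day 3, 665 and 599 at day 5, 1583 and 1568 in P2, 1007 and 1207 in P4, and 95 and 101 in P15. Here P2 stood above P4.

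The remaining 3 members differed in shape. For miR-668-3p the values were 54 and 16 in ICM, 24 and 64 at day 0.5, 55 and 97 at day 1, 413 and 432 at day 2, 260 and 320 at day 3, 307 and 327 at day 5, 180 in both P2 libraries, 3383 and 2967 in P4, and 90 and 87 in P15. A single group, P4, exceeded all others several-fold. For miR-485-5p they were 65 and 136 in ICM, 314 and 262 at day 0.5, 473 and 537 at day 1, 707 and 1004 at day 2, 640 and 740 at day 3, 558 and 465 at day 5, 211 and 183 in P2, 1014 and 1109 in P4, and 77 and 61 in P15. For miR-666-5p they were 92 and 81 in ICM, 55 and 81 at day 0.5, 297 and 246 at day 1, 396 and 345 at day 2, 601 and 466 at day 3, 504 and 710 at day 5, 429 and 455 in P2, 2245 and 1211 in P4, and 149 and 168 in P15. In these 3 members P2 did not exceed day 5, unlike in the 7 described before them.

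**Figure D2:**
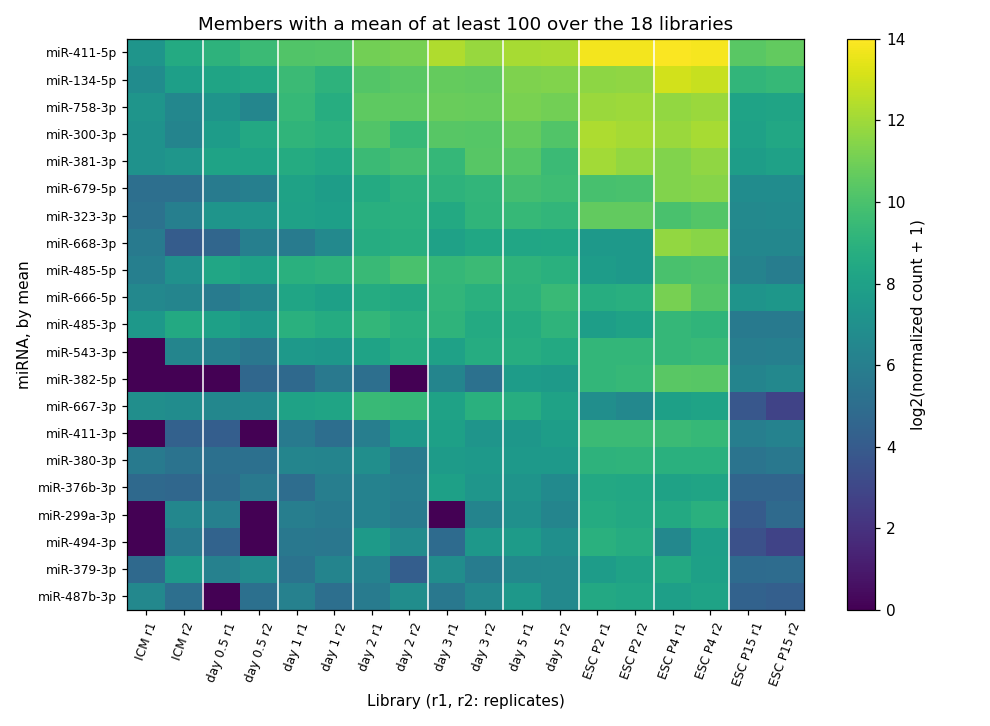
Log2(normalized count + 1) of the 21 members with a mean of at least 100 (rows, by mean) in the 18 libraries (columns). Most rows brighten from ICM to P2 and P4 and darken in P15, while miR-668-3p is bright only in P4.

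In the 10 early libraries, members were higher in outgrowths than in ICM. Of the 33 members tested, 11 rose and none fell (limma, Benjamini-Hochberg adjusted p below 0.05), beside 10.2% of the 729 miRNAs tested that were called higher and 11.8% called lower. At an unadjusted p below 0.05, 17 members were higher and 0 lower. Members listed at 0 in both ICM libraries could not fall. The median log2 change of the members was 2.20, against -0.50 over all miRNAs tested. The direction of the second median rested on 1 library: without ICM replicate 2 it was 0.73, with 70 miRNAs called higher and 45 lower, while the members' median was 2.30 and their counts stayed at 11 and 0. Marker lists also differed over these libraries. From ICM to day 3, mesenchymal markers went from between 0.173% and 0.329% of normalized counts to between 0.0308% and 0.105%, blood ones from between 0.374% and 0.469% to between 0.202% and 0.22%, and endoderm ones from between 0.308% and 0.313% to between 0.18% and 0.192%. Neural ones went from between 0.0767% and 0.0877% to between 0.0299% and 0.0425%. The mean blood share was 0.0801% at day 0.5 and 0.211% at day 3. Rows of 1 list went different ways. From ICM to day 3, group means of miR-486-5p went from 2288 to 559 and of miR-150-5p from 73 to 594.5. Those of miR-192-5p went from 1770 to 806.5 and of miR-375-3p from 32.5 to 661.5. In outgrowths against ICM, 1 of 5 tested blood rows was called higher and 1 lower, and 1 of 3 endoderm rows higher and 0 lower. The miR-290 to miR-295 share was 16.7% in ICM and 8.09% at day 3, and 6 of its 14 tested rows were lower in outgrowths than in ICM and 0 higher. The part of these lists in the members' rise was not tested. The largest rises among abundant members were those of miR-679-5p, 7.11-fold (log2 2.83, SE 0.22, adjusted p = 0.000392), and miR-411-5p, 6.65-fold (log2 2.73, SE 0.31, adjusted p = 0.0011). They were followed by miR-300-3p (log2 2.59, SE 0.31), miR-323-3p (2.59, SE 0.26) and miR-485-5p (2.50, SE 0.28), with limma adjusted p-values of 0.00137, 0.00101 and 0.0011. The other 6 that rose were miR-758-3p, miR-134-5p, miR-668-3p, miR-381-3p, miR-666-5p and miR-667-3p, by 1.27 to 2.41 on the log2 scale.

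The rise went on within the outgrowth period. Between day 0.5 and day 3, 16 of 33 members rose and 0 fell (limma, adjusted p below 0.05), beside 8.92% called higher and 18.9% called lower among all 729. At an unadjusted p below 0.05 the counts were 19 and 1. Members listed at 0 in both day 0.5 libraries could not fall. The members' median log2 change was 2.52, against -1.02 over all, and 1.44 against -0.225 with values raised to the common floor. The largest among abundant members was miR-758-3p, at 15.3-fold (log2 3.94, SE 0.38, limma adjusted p = 0.000751), which had not yet stood apart from ICM at day 0.5. After it came miR-679-5p (log2 3.19, SE 0.28), miR-666-5p (2.97, SE 0.29), miR-668-3p (2.84, SE 0.68) and miR-411-5p (2.80, SE 0.39). The call of miR-668-3p, at a limma adjusted p of 0.0209, was lost without day 0.5 replicate 1 (0.11), without day 3 replicate 1 (0.0738), without day 3 replicate 2 (0.0832) and under quantile normalization (0.0659). Leaving out day 0.5 replicate 1, day 0.5 replicate 2, day 3 replicate 1 or day 3 replicate 2 lowered the count of 16 to 8, 9, 9 and 10, in that order.

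From day 3 to day 5, a comparison across the step in depth made above the common floor, few members passed the test. Of 41 tested, 3 rose and 0 fell (limma), beside 9.63% called higher and 7.64% called lower among 602 miRNAs. At an unadjusted p below 0.05 the counts were 5 and 0. Members at or below the floor in both day 3 libraries could not fall. The members' median log2 change was 0.13, against 0 over all. The clearest was miR-382-5p, with 82 and 36 at day 3 and 207 ± 9.9 (SD, n = 2) at day 5, a rise of 3.75-fold (log2 1.91, SE 0.35, limma adjusted p = 0.00274) that was lost when values were used as deposited without the floor (0.486). For miR-679-5p the change was 1.53-fold (log2 0.62, SE 0.18, adjusted p = 0.0342), and it was lost in 10 of the alternative settings, among them without either day 3 or either day 5 library. The third was miR-495-3p (log2 0.83, SE 0.26, adjusted p = 0.0495). Without day 5 replicate 1 or any one P2, P15 or the second P4 library only 1 member was called.

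Across the whole course, ESCs carried more of most members than ICM. With the 3 ESC groups averaged, 31 of 41 members rose and 0 fell above the common floor (limma), beside 35.9% called higher and 32.2% called lower among 602. At an unadjusted p below 0.05 the counts were 31 and 1. Members at or below 27 in both ICM libraries could not fall here, and any change below 27 was set to 0. The members' median log2 change was 1.36, against 0 over all. The largest rises were those of miR-411-5p, 27.6-fold (log2 4.78, SE 0.26, limma adjusted p = 2.35e-08), miR-679-5p, 19.5-fold (log2 4.28, SE 0.15), miR-300-3p, 17-fold (log2 4.09, SE 0.28), miR-134-5p, 15.4-fold (log2 3.95, SE 0.23) and miR-382-5p, 14.9-fold (log2 3.90, SE 0.29). With each library rescaled to the same total, the median of all tested miRNAs moved from 0 to -0.28. The split of 39 members was then 26 higher and 3 lower, beside 170 higher and 268 lower among 634 miRNAs. Since both ICM libraries are shallow and all ESC libraries deep, depth and stage cannot be told apart here beyond the use of the floor.

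That average hid a divide among the ESC groups. With P2 and P4 alone, 34 of 41 members rose against ICM and 0 fell (limma), beside 33.6% called higher and 30.4% called lower among 602. The members' median log2 change was 2.08. Again, members at or below 27 in both ICM libraries could not fall. Some called rises lay barely above the floor, such as miR-494-5p (log2 0.07, limma adjusted p = 0.0386) and miR-1193-5p (log2 0.16, limma adjusted p = 0.0253). With P15 alone, 10 of 41 rose and 3 fell, beside 24.1% higher and 25.6% lower among all, with a median of 0 (both chosen after seeing the data). The share of members higher in P15 than in ICM was thus near that of all miRNAs. The median of 0 was set by the floor. Members below 27 in both groups, such as miR-376c-3p and miR-377-3p, had a change of exactly 0. Whether they differed below 27 could not be seen. The 3 that fell in P15 were miR-485-3p (log2 -2.25, SE 0.34), miR-667-3p (-2.06, SE 0.28) and miR-376a-5p (-1.09, SE 0.35), with limma adjusted p-values of 0.00014, 5.8e-05 and 0.0216. Among those that rose there, miR-411-5p (log2 2.60, SE 0.32), miR-134-5p (1.97, SE 0.29) and miR-679-5p (1.72, SE 0.18) had the largest changes.

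The ESC groups were then set against the day 5 outgrowths within the 8 deeper libraries. These 3 comparisons share the day 5 libraries, so their values are given side by side. Of 47 members tested, 29 rose and 5 fell in P2 (limma), beside 32.4% called higher and 27.2% called lower among 556. In P4, 31 rose and 0 fell, beside 26.3% higher and 25.9% lower, and at an unadjusted p below 0.05 the counts were 33 and 0. In P15, 0 rose and 44 fell, beside 23% higher and 34.9% lower, and the unadjusted counts were 0 and 45. The members' median log2 changes were 1.20, 1.17 and -2.34, against 0.11, 0.05 and -0.23 over all miRNAs. Rescaling libraries to the same total moved the medians of all miRNAs to 0.00, -0.44 and -0.96 and those of the members to 1.10, 0.66 and -2.97, and 16 members then rose in P4.

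In P2 the largest rises among abundant members were those of miR-411-3p (log2 1.95, SE 0.17), miR-381-3p (1.95, SE 0.28), miR-329-5p (1.87, SE 0.29), miR-299a-3p (1.82, SE 0.34) and miR-300-3p (1.76, SE 0.22). Their limma adjusted p-values were 0.000393, 0.00201, 0.00236, 0.00497 and 0.00112. The 5 that fell came from 4 hairpins: miR-667-3p (log2 -1.65, SE 0.37), miR-485-5p (-1.37, SE 0.18), miR-485-3p (-0.89, SE 0.19), miR-668-3p (-0.81, SE 0.12) and miR-323-5p (-1.68, SE 0.24). Both arms of miR-485 were among them, whereas the 3p arm of miR-323 rose by 1.32. The fall of miR-667-3p missed the threshold without P2 replicate 2 (limma adjusted p = 0.0584), that of miR-485-3p without P2 replicate 1 (0.0547), and the count of rises was 18 without P2 replicate 1.

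In P4 the order differed. Among abundant members the largest rise was that of miR-668-3p, from 307 and 327 to 3383 and 2967, 9.97-fold (log2 3.32, SE 0.12, limma adjusted p = 8.55e-06), a member that fell in P2. Next came miR-382-5p, from the same day 5 mean of 207 to 1357 and 1309, 6.42-fold (log2 2.68, SE 0.13). Then miR-299a-3p (log2 1.99, SE 0.34), miR-329-5p (1.87, SE 0.29) and miR-411-3p (1.86, SE 0.17) followed, close to their P2 values.

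In P15 nearly all tested members fell. The largest falls among abundant members were those of miR-667-3p, from 414 and 267 to 13 and 6, 33.7 times lower (log2 -5.07, SE 0.37, limma adjusted p = 8.81e-05), and miR-494-3p, from 201 and 123 to 10 and 6, 18 times lower (log2 -4.17, SE 0.49, adjusted p = 0.000591). For miR-485-3p the log2 change was -3.14 (SE 0.19), for miR-758-3p -2.94 (SE 0.12) and for miR-679-5p -2.90 (SE 0.11). The most abundant member, miR-411-5p, fell by 1.66 on the log2 scale (SE 0.13). The 3 members not called were miR-494-5p (log2 -0.53), miR-382-3p (-0.95) and miR-379-5p (-0.92), with limma adjusted p-values of 0.43, 0.132 and 0.0668. With values raised to the common floor, which removes change below 27 normalized counts, 26 of 41 tested members fell.

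**Figure D3:**
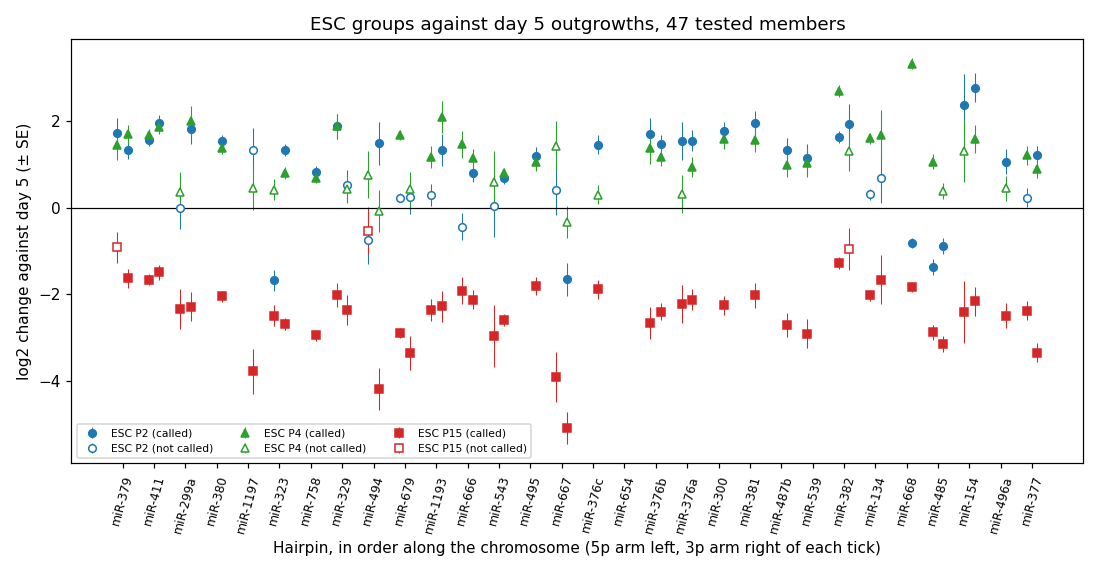
Log2 change against day 5 (vertical axis, with the standard error) of the 47 tested members, ordered by hairpin along the chromosome. Filled symbols passed the test; all P15 values (squares) lie below 0, and most P2 (circles) and P4 (triangles) values lie above it.

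A direct comparison among the ESC groups showed the same divide. It came from the same 8 libraries and the same fit as the comparisons with day 5, and is not independent of them. P15 against the mean of P2 and P4 gave 46 members lower and 0 higher of 47 (limma), beside 27.5% called lower and 30.6% called higher among 556. At an unadjusted p below 0.05 the counts were 46 and 0. The members' median log2 change was -3.36, against 0.19 over all. In the deposited normalized counts, 45 of the 47 tested members had both P15 libraries below all 6 of day 5, P2 and P4. The share over all 556 miRNAs was 20.9%. The member exceptions were miR-494-5p and miR-382-3p, both low. The largest falls among abundant members were those of miR-494-3p, 29.3 times lower (log2 -4.87, SE 0.42, limma adjusted p = 0.000111), and miR-299a-3p, 18.2 times lower (log2 -4.18, SE 0.30). Then came miR-667-3p (log2 -4.08, SE 0.32), miR-300-3p (-3.92, SE 0.19) and miR-329-5p (-3.88, SE 0.25). The lower bounds on depth were 2380000 and 2530000 reads in P15, 2600000 and 2710000 in P2, and 2420000 and 3020000 in P4, and true depths may differ from them. Leaving out any one library left 46 or 47 members lower. With values raised to the common floor, 37 of 41 members were lower in P15 than in the mean of P2 and P4, beside 140 of 440 miRNAs. With all 18 libraries in 1 fit, 32 of 48 members were lower, beside 85 of 811. A test of any difference among the 3 groups called 46 of the 47 members, beside 80.4% of all miRNAs. Fewer cells that make these miRNAs and less of them per cell cannot be told apart in bulk libraries.

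Members on both sides of the annotated Mirg start were lower in P15. Of the members from hairpins upstream of annotated Mirg, 32 of 33 were lower in P15, with a median of -3.68, and of those within it 12 of 12, with a median of -3.09. The other miRNAs of the domain were lower as well. All 11 tested miRNAs antisense to Rtl1 were lower in P15 than in the mean of P2 and P4, as were all 11 tested miRNAs of the distal end of the domain. Near Meg3 and Rian 11 of 16 were lower and 3 higher. In group means, the most abundant of each list measured 11530 in P2, 11760 in P4 and 919.5 in P15 (miR-434-3p, antisense to Rtl1), 2438, 12890 and 571 (miR-540-3p, near Meg3 and Rian), and 64210, 133700 and 9704 (miR-541-5p, distal). The miR-290 to miR-295 share was 14% in P2, 11.3% in P4 and 11.2% in P15; of its 14 tested rows 4 were called higher in P15 and 0 lower. Endoderm markers went from 0.117% to 0.199% of normalized counts in P2 and P4 to 0.283% to 0.317% in P15, with 3 of 3 tested rows higher. Neural markers were at 0.0427% to 0.0641% in P2 and P4 and at 0.0576% to 0.0577% in P15, with 3 of 3 tested rows higher. Blood markers were at 0.259% to 0.272% in P2, 0.181% to 0.199% in P4 and 0.0849% to 0.0896% in P15, with 2 of 4 tested rows lower and 1 higher, and none of 4 tested mesenchymal rows was called. The part of these marker lists in the members' fall was not tested.

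P2 and P4 held like shares of members but not like members. Of 47 tested, 11 were higher in P4, 5 lower and 31 not called (limma), beside 25.5% called higher and 31.3% called lower among 556. The median of the members was 0.00 and of all miRNAs -0.11. With libraries rescaled to the same total these medians became -0.39 and -0.53. The split of the members became 8 higher and 8 lower, beside 111 higher and 221 lower among 569 miRNAs. Among abundant members the largest difference was that of miR-668-3p, 17.5-fold higher in P4 (log2 4.13, SE 0.12, limma adjusted p = 3.24e-06). It was followed by miR-485-5p, 5.37-fold (log2 2.43, SE 0.18), miR-666-5p, 3.73-fold (log2 1.90, SE 0.31), miR-679-5p, 2.71-fold (log2 1.44, SE 0.11) and miR-667-3p, 2.49-fold (log2 1.31, SE 0.37). Among those lower in P4, miR-494-3p differed by -1.56 (SE 0.49), with 480 and 403 in P2 and 93 and 237 in P4. For miR-376c-3p, from a family known for A-to-I editing of its precursors, the difference was -1.16 (SE 0.22), and for miR-323-3p it was -0.51 (SE 0.14). The calls of miR-494-3p (limma adjusted p = 0.0324) and miR-323-3p (0.018) were lost without P2 replicate 1 (0.134 and 0.0987), P2 replicate 2 (0.0874 and 0.0868) or P4 replicate 1 (0.125 and 0.096). That of miR-667-3p (0.0234) was lost without any one of the 4 libraries (0.059 to 0.116) and after rescaling to equal totals (0.101). Without P2 replicate 1 or P2 replicate 2 the count of lower members was 1, and without P4 replicate 1 it was 2.

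Base composition moved with this difference. Among the 44 members with a sequence, the share of G and C bases and the log2 difference of P4 from P2 had a Pearson r of 0.70 and a Spearman rho of 0.70. Over all 447 tested miRNAs with a sequence these were 0.33 and 0.41. The points share the same 4 libraries, and the values are descriptions. In the sequences printed above, miR-668-3p (66.7% G and C), miR-666-5p (68.2%) and miR-667-3p (65.2%) are rich in G and C, and miR-494-3p (45.5%) is not. Of the 9 members with at least 55% G and C, a limit set after seeing the data, 6 were higher in P4 and 0 lower, with a median log2 difference of 1.29. Of the other 35, 4 were higher and 4 lower, with a median of -0.14. Over all tested miRNAs with a sequence, 47.9% of those at or above that limit and 18.5% of those below it were higher in P4. The same measure ran the other way for P2 against day 5 (r = -0.67 over the members, -0.36 over all), and was near 0 for P4 against day 5 (0.065 and -0.057). For P15 against the mean of P2 and P4 it was 0.21 over the members. The part of base composition in the difference between P2 and P4 was not tested.

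**Figure D4:**
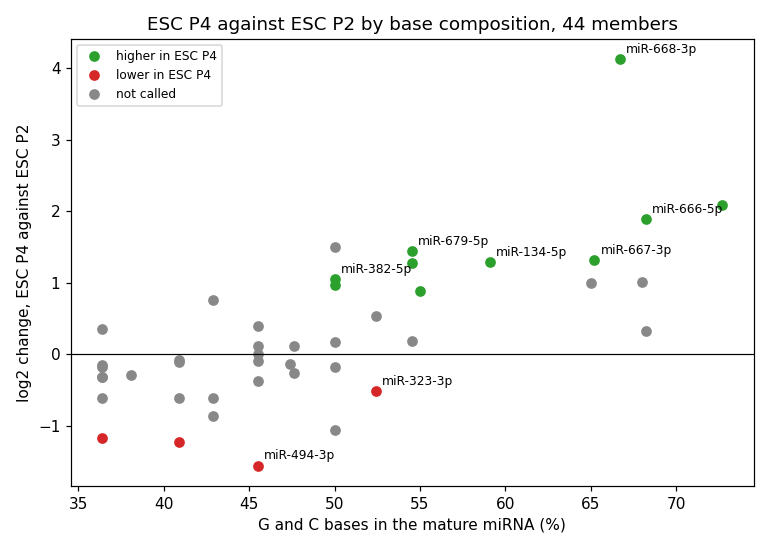
Log2 difference of P4 from P2 (vertical axis) against the percentage of G and C bases in the mature miRNA (horizontal axis) for 44 members. Green points passed the test as higher in P4, red as lower and grey did not pass; of the points at or above 55%, 6 are green and none is red.

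The balance of the 2 arms of a hairpin was not used in choosing the members. Among day 5 and the ESC groups it differed for 6 of 15 member hairpins with both arms abundant enough (limma, adjusted p below 0.05), beside 52.7% of all 110 hairpins tested. For miR-323 the 5p to 3p ratio was 0.0577 at day 5, 0.00723 in P2, 0.0439 in P4 and 0.0655 in P15 (limma adjusted p = 0.000786). For miR-299a it was 0.222, 0.0622, 0.0722 and 0.213 (0.00429). For miR-494 it was 0.116, 0.0248, 0.207 and 1.45 (0.00686), and for miR-377 0.605, 0.309, 0.753 and 1.18 (0.00706). In P2 the 3p arm took its largest excess in all 4 of these hairpins, which are the 4 member hairpins with the lowest p. It was not so for every called hairpin. For miR-667 the 3p excess was smallest in P2, at a 5p to 3p ratio of 0.321 beside 0.0773 at day 5. For miR-494 and miR-377 the arms were near parity in P15, where all 4 arms were at or below 22. The 2 remaining calls were miR-667 and miR-382, and the dominant hairpin, miR-411, was not called: its 5p arm exceeded its 3p arm 18.5-fold to 24.3-fold in the 4 groups (limma adjusted p = 0.364).

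Low members completed the picture. Of the 57 rows, 47 passed the filter of at least 10 normalized counts in at least 2 libraries among day 5 and ESCs, and since a member can pass through the groups where it is high, counts over those 47 do not speak for the rest. The 10 others (miR-380-5p, miR-539-3p, both arms of miR-654, miR-495-5p, miR-381-5p, miR-300-5p, miR-668-5p, miR-496a-5p and miR-487b-5p) had no value above 11 at these stages. The tested rows of miR-668, miR-300, miR-381, miR-495, miR-380, miR-496a and miR-487b are thus 3p arms only, and that of miR-539 is its 5p arm. By group mean, 25 of the 57 members were highest in P2 and 22 in P4. The other 10 peaked earlier, among them miR-667-3p at day 2, with 704 and 645.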

How the data were processed

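Mature miRNAs of 18 small-RNA libraries were read from the deposited table of scores, which are counts normalized by the authors and rounded to whole numbers. The submitters' processing notes name cutadapt (no version), DESeq2 1.30.0 and mm10. For the aligner, the counting step and the set of annotated miRNAs the sources used here give nothing. RNA was extracted with a PureLink miRNA kit, followed by the TruSeq Small RNA kit and size selection, per the labels' protocols.

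In the 10 shallow libraries, 99.4% to 100% of values lay on whole steps of 1.73 to 5.44 normalized counts, taken as 1 read. Depth is that total divided by the step; for the other 8 only bounds could be had, assuming that the lowest value stands for 5 reads as in the shallow ones. Values as log2(normalized count + 1) were fitted with limma 3.58.1 in R 4.3.3 (trend, robust) as group means, over the 10 early libraries, the 8 deep ones, or all 18 above a floor of 27 (5, 4 and 9 residual degrees of freedom). A miRNA entered at 10 or more in at least 2 libraries of the fit, and in the floor fits also above the floor in 2. P-values were adjusted by Benjamini-Hochberg over all miRNAs tested, with a threshold of 0.05. Arm balance was fitted the same way on log2 ratios of hairpins with both arms at 20 or more in 2 libraries. Fold changes are on the log2(value + 1) scale and understate those of low miRNAs. On simulated data, 0.239% to 1.89% of unchanged miRNAs were called in the 5 comparisons simulated. Of the tested miRNAs changed by 1 on the log2 scale, 43.4% to 69.9% were recovered. The simulation gave all miRNAs the same dispersion and shifted no whole library, so rates in the real data may differ.

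Named members are the 10 most abundant, and per comparison up to 5 each way with the largest change at a mean of at least 100, plus up to 3 called against the majority; others named were chosen after their values were seen. Members and lists were chosen with earlier results of these data known. Hairpins and sequences are RefSeq GRCm38.p6.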

Additional observations from a re-analysis of the deposited data

Results flagged for a closer look

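Among the 10 most abundant members, 7 met a rule for opposite changes against day 5 (limma, adjusted p below 0.05). The rule asked for opposite calls in P2 and P4, or for calls higher in both and lower in P15. The difference between those groups also had to pass the test. A rise in P4 with a fall in P15 alone was not counted. Group means at day 5, P4 and P15 were 2579, 7816 and 636.5 for miR-134-5p, which was not flagged. They were 845, 2690 and 112.5 for miR-679-5p and 607, 1728 and 158.5 for miR-666-5p, also not flagged. Members outside these 10 were not screened in this way, and most of them also differed among ESC groups. For P15 against the mean of P2 and P4, the log2 differences were -3.28 for miR-411-5p, -3.70 for miR-758-3p, -3.92 for miR-300-3p, -3.78 for miR-381-3p and -3.74 for miR-323-3p. Each was lower in both P15 libraries than in all 4 libraries of P2 and P4. For P4 against P2, the log2 differences were 4.13 for miR-668-3p and 2.43 for miR-485-5p, and both were higher in both P4 libraries than in both P2 libraries. With 2 libraries per group no single library could be tested as standing apart from its group.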

How the results depend on the processing

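No count and no named member changed direction under any alternative. With all 18 libraries in 1 fit, 19 members were higher in outgrowths than in ICM, 1 was lower at day 3 than at day 0.5, 8 were higher and 2 lower in P2 than at day 5, 9 were higher in P4, 20 were lower in P15, 7 were higher and 0 lower in P4 than in P2, and 28 differed among ESC groups. Rescaling to the same total gave 1 of 39 members higher at day 5 than at day 3 (48 of 634). It gave 3 of 39 lower in ESCs than in ICM (268 of 634). It also gave 16 of 47 higher in P4 than at day 5 (75 of 569) and 8 of 47 lower in P4 than in P2 (221 of 569). Without the floor, 11 were higher at day 5 than at day 3 and 1 was lower in ESCs than in ICM. With the floor, 26 were lower in P15 than at day 5 and 9 lower in P4 than in P2. A pseudocount of 5 gave 1 of 33 lower at day 3 than at day 0.5 (143 of 729) and 8 of 47 lower in P4 than in P2 (182 of 556). Quantile normalization gave 3 of 47 lower in P4 than in P2 (161 of 556), and no filter gave 1 of 54 lower in P4 than at day 5 (185 of 935). Requiring both arms at 50 left 2 hairpins called. Against ICM, P15 alone gave 10 of 41 higher and 3 lower (145 and 154 of 602). Without the most abundant member the shares were 0.366% at day 0.5, 0.721% at day 1, 1.18% at day 2, 1.37% at day 3, 1.81% at day 5, 3.18% in P2, 3.41% in P4 and 0.209% in P15. The cause was not tested, except that the floor and stricter arm minimum remove low values.

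Leaving out each library in turn, counts ranged from 8 to 20 higher and 0 to 1 lower for day 3 against day 0.5, 1 to 4 higher for day 5 against day 3, 0 to 1 lower for ESCs against ICM, 18 to 29 higher for P2 against day 5, 1 to 6 lower for P4 against P2, and 3 to 9 hairpins for arm balance. Where this leaves 1 library in a group, its spread is assumed to be that of the others.

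Replicate numbers gave no clear sign of pairing, though these values cannot exclude it. Deviations of same-numbered libraries correlated at -0.118 to 0.0676 over 10 pairs of groups in the early libraries. In the deep ones they correlated at -0.432 to 0.295 over 6 pairs, 1 of them above 0.1. With the replicate block, 1 of 41 members was lower in ESCs than in ICM (195 of 602) and 3 of 47 were lower in P4 than in P2 (161 of 556). The other counts stayed within 1.5 times. With it, miR-494-3p missed the threshold for P4 against P2 (limma adjusted p = 0.0563). Of the calls of single named members, 14 were lost with all 18 libraries in 1 fit. Groups of 2, depths that differ by stage and values rounded after normalization limit what low members can show.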

Other observations

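Some low members were carried by a single library. The value of miR-667-5p was 368 in day 0.5 replicate 2 and 9 in replicate 1, and 0 to 77 in the other libraries. In the early libraries miR-379-5p was listed above 0 only in day 3 replicate 1, at 96, although its partner miR-379-3p was above 0 in all 18 libraries. In ESCs it measured 255 and 302 in P2, 314 and 169 in P4, and 41 and 47 in P15, against 65 and 108 at day 5.

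Members of the miR-376 group stood close together on the chromosome but not in level. The group mean of miR-376b-3p in P2 was 346.5, beside 95 for miR-376c-3p and 68.5 for miR-376a-3p, although miR-376a-3p and miR-376b-3p are identical at 18 of 21 positions (G4A, A13C and G20U). All 3 were lower in P15 than in the mean of P2 and P4 (limma, adjusted p below 0.05), at log2 -3.71, -2.76 and -3.36.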
